A study of Glycine max with 20 samples.

Results

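Soybean leaves sampled 48 h after aphids were placed on them were compared with uninfested leaves (0 h), with 2 near-isogenic lines in one model. The comparison used 8 of the 20 RNA-seq libraries of the study, chosen by their time label: 4 libraries at 48 h and 4 at 0 h, with 2 biological replicates per line at each time. The labels name the lines by genotype, rag2 (susceptible to the aphid) and Rag2 (resistant), while the count table calls them W and BC. Neither source ties W or BC to a genotype, so the table's names are kept and changes are not set against resistance. Every 48 h leaf was infested and every 0 h leaf was not, and the series has no uninfested leaf at 48 h, so infestation, plant age and the day of sampling cannot be told apart. The sources used here do not state the hour of day, the age of the plants or how many plants made up a replicate.

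The soybean aphid feeds by threading its stylets into sieve tubes and drinking phloem sap. Resistance at some Rag loci is inherited as a dominant trait that limits aphid survival and reproduction on the plant. In plants, phloem feeders are known to engage salicylate and jasmonate signalling, callose deposition at sieve plates, and secreted defence proteins such as chitinases, and feeding can also shift carbon and nitrogen metabolism of the leaf.

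Gene models in the deposited table carry Glyma identifiers. Of the 66210 models, 0 matched the RefSeq soybean gene table (Glycine_max_v4.0), and the files give no names for them. What each model does is therefore not stated, and the leaf label could not be checked against marker genes. At most 2 models per direction are named in each comparison. The digits before the letter g in an identifier give the chromosome by the naming convention.

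The 4 libraries at 0 h held between 7558768 and 34719102 reads in gene models and the 4 at 48 h between 7692936 and 14647987. Replicates of each of the 4 groups differed by more than counting noise (chi-square over its degrees of freedom from 4.54 to 41.8). Line labels were checked with 11 models whose levels differed at least 4-fold between every W and every BC library among the 12 libraries at 4, 8 and 24 h. Each of these 11 models lay on the side of its labelled line in 7 of the 8 libraries, and 10 of the 11 did so in replicate 1 of W at 48 h. Time labels had no such check.

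The 8 libraries did not sort by time. Replicate 2 of BC at 0 h stood apart from the other 7, with a mean correlation of log2 CPM (reads scaled to a common library total, with 0.5 added) of 0.897 with them, where the others had 0.937 to 0.958. It lay at 135 on the first principal component, which carried 40.6% of the variance, while the other libraries lay between -44.8 and -2.05. The second component, with 24.4% of the variance, separated the W libraries by time, with 80.1 and 27.0 at 48 h against -11.8 and -65.3 at 0 h. BC libraries did not follow that order, with -9.11 and -28.7 at 48 h and -15.8 and 23.6 at 0 h. The closest library to replicate 1 of W at 0 h was replicate 1 of BC at 48 h, at a correlation of 0.978. The closest to replicate 2 of W at 48 h was replicate 1 of BC at 0 h, at 0.974. Without replicate 2 of BC at 0 h, the typical difference between 2 libraries (median absolute log2 difference over models, then the median over pairs) was 0.25 for replicates, 0.28 for 0 h against 48 h of the same line, and 0.23 for pairs that differed in both line and time. Libraries of 1 line at the 2 times thus differed by little more than replicates did.

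**Figure D1:**
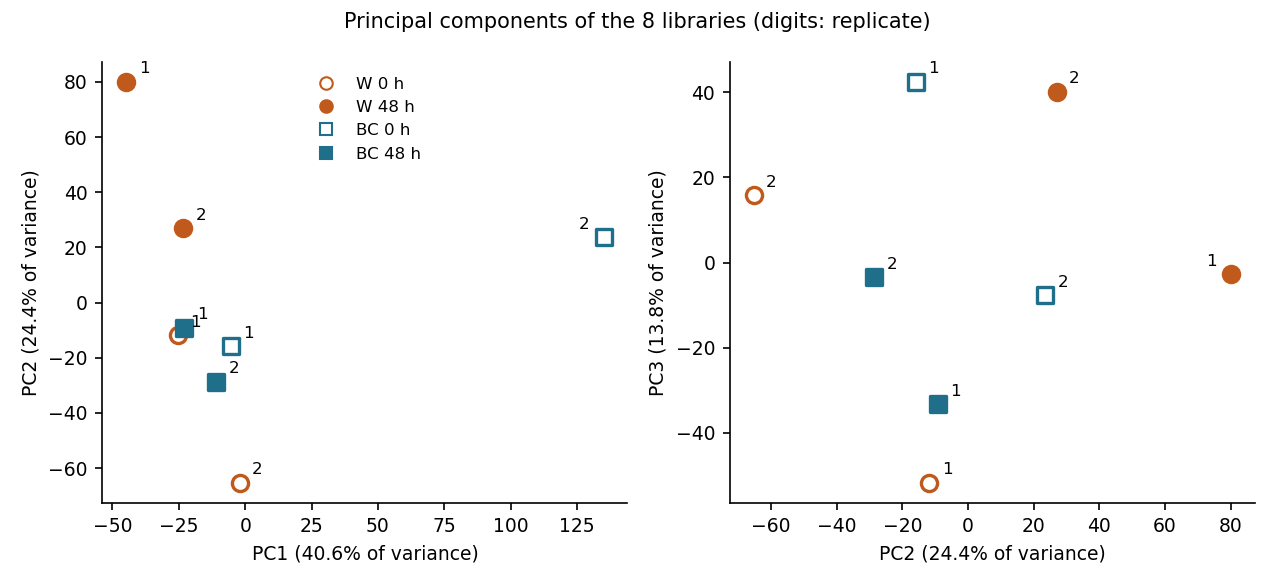
Principal components of log2 CPM over the tested models in the 8 libraries (circles W, squares BC, open 0 h, filled 48 h, digits the replicate number; PC1 and PC2 on the left, PC2 and PC3 on the right, each axis with its percent of variance). Replicate 2 of BC at 0 h lies alone at 135 on PC1, and the W libraries part by time on PC2 while the BC libraries do not.

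The first question was which transcripts stood at another level at 48 h in both lines. With line as a covariate, 0 of 36612 tested models passed (0% in either direction; edgeR quasi-likelihood test, Benjamini-Hochberg adjusted p below 0.05), and the lowest adjusted p was 0.794. An unadjusted p below 0.05 was found for 2142 models, or 5.85% of those tested, 751 with a higher and 1391 with a lower level at 48 h. Without replicate 2 of BC at 0 h the count of calls was again 0 (of 37836, lowest adjusted p 0.385), with 2474 models, or 6.54%, at an unadjusted p below 0.05. Limma voom with library weights called 0 as well, where 2754 models had an unadjusted p below 0.05, 1428 higher and 1326 lower, so the balance of directions turned there. By DESeq2, 72 models, or 0.197%, passed, 27 higher and 45 lower, and their median absolute change was 2.26 on the log2 scale. When the spread was estimated from all 20 libraries with 10 line-by-time groups, edgeR called 10 models, or 0.0257%, and all 10 had a lower level at 48 h.

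These 10 models spanned log2 fold changes from -4.90 to -1.71 in that fit, and 9 of them were also among the DESeq2 calls, which is 90.0% of the 10 and 12.5% of the 72. Their fitted change was negative in both lines for all 10 and larger in W for 9. In 9 of the 10 each of the 4 libraries at 48 h lay below each of the 4 at 0 h. Leaving replicate 2 of BC at 0 h out of the 20 gave 5 calls, of which 2 were among the 10.

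The precision of a fold change differed between levels of the transcript. With line as an additive covariate, unlike changes in W and BC enter the residual spread and so the standard error. Their part in the values that follow was not tested. CPM values are not corrected for transcript length, so the classes that follow rank models by reads. The median standard error of the log2 fold change was 0.54 for the 2624 models under 1 CPM (mean over the 8 libraries), 0.32 for the 15328 from 1 to 10 CPM, 0.21 for the 17073 from 10 to 100 CPM and 0.30 for the 1587 at 100 CPM or more. A fitted change of more than 2-fold in either direction was found in 17.8%, 5.10%, 1.38% and 1.76% of these classes. Over all models the median log2 fold change was -0.03 and the median absolute value 0.22, below the median standard error of 0.27. Of the 36612 models tested, 564 had a fitted level more than 2-fold higher at 48 h and 947 one more than 2-fold lower.

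**Figure D2:**
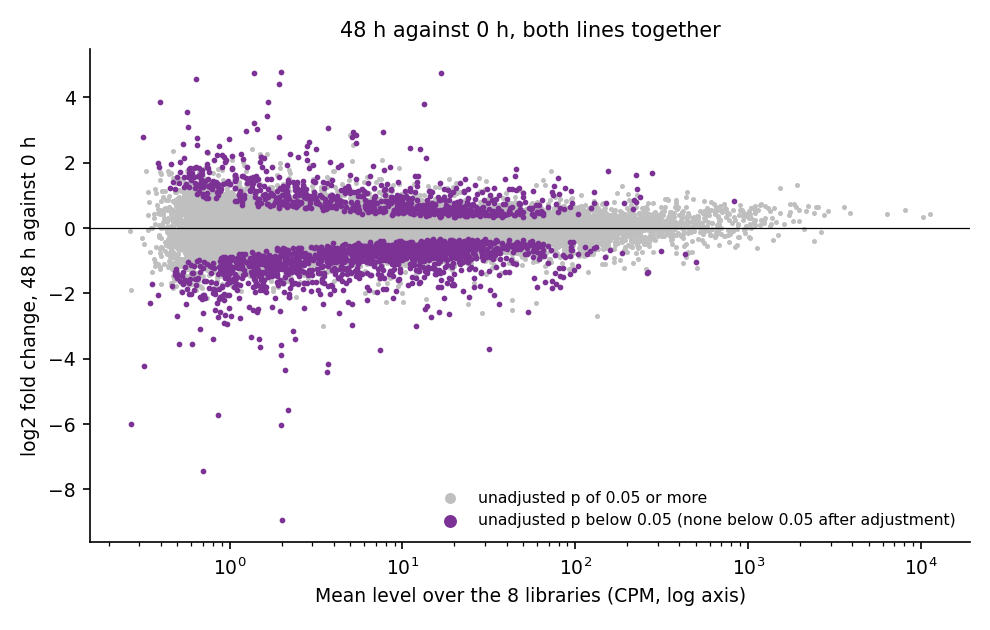
Fitted log2 fold change of each of the 36612 tested models at 48 h against 0 h (vertical axis) by its mean level over the 8 libraries (CPM, log axis), with the 2142 models at an unadjusted p below 0.05 in purple. Large fitted changes lie mostly at low levels, and 0 models pass after adjustment.

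A count that uses no model gave a like picture. All 4 libraries at 48 h lay above all 4 at 0 h in 545 models (1.49%), with a median fitted log2 fold change of 0.49, and below all 4 in 740 models (2.02%), with a median of -0.64. Of these, 100 and 168 differed by more than 2-fold. Of all ways to order 4 against 4 libraries, a share of 0.0286 separates them fully in either direction. The share of non-overlapping models was 3.89%, 3.73%, 3.46% and 1.39% in the classes from the lowest to the highest level. By chromosome it ranged from 2.52% on chromosome 18 to 4.36% on chromosome 17, and it was 3.49% on chromosome 13, the chromosome that holds Rag2. Without replicate 2 of BC at 0 h, 985 models (2.60%) lay above and 1517 (4.01%) below, with fewer libraries to separate.

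Among models with a mean of at least 1 CPM and no overlap, the 12 with the lowest p in each direction were taken by rule, since none passed the adjusted threshold. They were chosen by this contrast, so their values are a description. Among the 12 higher models the log2 fold change lay between 0.88 and 4.79 with a median of 1.85, and among the 12 lower ones its size lay between 1.56 and 6.04 with a median of -2.73. The fitted change in W was larger than that in BC in 6 of the 12 higher and 11 of the 12 lower models. The direction was kept without replicate 2 of BC at 0 h in 12 of 12 in each set. DESeq2 called 12 of 12 in each, and the fit to all 20 libraries called 0 and 3. Models without overlap keep their direction when a library is left out, and DESeq2 used the same libraries. The kept directions and the DESeq2 calls are therefore no separate support.

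The higher model with the lowest p was Glyma19g34380.1 on chromosome 19. At 0 h it was at 23.6 and 29.7 CPM in W and 15.3 and 12.1 CPM in BC. At 48 h it was at 108 and 69.5 CPM in W and 62.2 and 39.4 CPM in BC, so each 48 h library lay above each 0 h library. The mean went from 20.2 ± 8.01 to 69.9 ± 28.7 CPM (SD, n = 4), and the log2 fold change was 1.81 ± 0.23 (SE; edgeR unadjusted p = 2.43e-05, adjusted p = 0.794). The change was of like size in W (1.74 ± 0.32, SE) and BC (1.88 ± 0.33, SE). The level was already high at 4 h, at 64.0 and 84.4 CPM in W and 81.5 and 44.1 CPM in BC. At 24 h W was at 18.9 and 46.8 CPM and BC at 50.8 and 68.8 CPM, so W overlapped its 0 h level there and BC did not.

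Glyma15g15170.1 on chromosome 15 came next. It was at 8.76 and 7.09 CPM in W and 5.45 and 5.00 CPM in BC at 0 h. At 48 h it was at 24.5 and 15.5 CPM in W and 11.7 and 11.0 CPM in BC. Its log2 fold change was 1.23 ± 0.20 (SE; edgeR unadjusted p = 1.61e-04, adjusted p = 0.794; 6.58 ± 1.71 against 15.7 ± 6.23 CPM, SD, n = 4). At 8 h both W libraries, at 3.18 and 8.16 CPM, lay below the higher W library at 0 h, and the BC libraries at 24 h were far apart, at 8.93 and 20.1 CPM.

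In the other direction, Glyma04g09770.1 on chromosome 4 had the lowest p. At 0 h it was at 7.84 and 15.2 CPM in W and 8.43 and 5.14 CPM in BC, and at 48 h at 1.14 and 0.646 CPM in W and 1.64 and 1.01 CPM in BC. The groups did not overlap. The mean went from 9.15 ± 4.27 to 1.11 ± 0.411 CPM (SD, n = 4), which is a log2 fold change of -2.97 ± 0.41 (SE; edgeR unadjusted p = 4.83e-05, adjusted p = 0.794). It passed in the fit to all 20 libraries (log2 fold change -2.98, adjusted p = 0.00803) and with DESeq2 (-2.96, adjusted p = 4.65e-07). Its low level was not particular to 48 h. All 12 libraries at 4, 8 and 24 h lay between 0.827 and 2.55 CPM, below each of the 0 h libraries.

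Glyma19g30530.1 on chromosome 19 was at 15.6 and 24.2 CPM in W and 12.6 and 24.6 CPM in BC at 0 h. Its 4 libraries at 48 h lay close together, at 5.63 and 6.07 CPM in W and 6.79 and 6.19 CPM in BC. The mean was 19.2 ± 6.04 CPM at 0 h and 6.17 ± 0.481 CPM at 48 h (SD, n = 4), and the log2 fold change was -1.64 ± 0.26 (SE; edgeR unadjusted p = 1.19e-04, adjusted p = 0.794). At 8 h the lines lay apart, with 5.82 and 6.56 CPM in W and 13.7 and 15.0 CPM in BC.

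**Figure D3:**
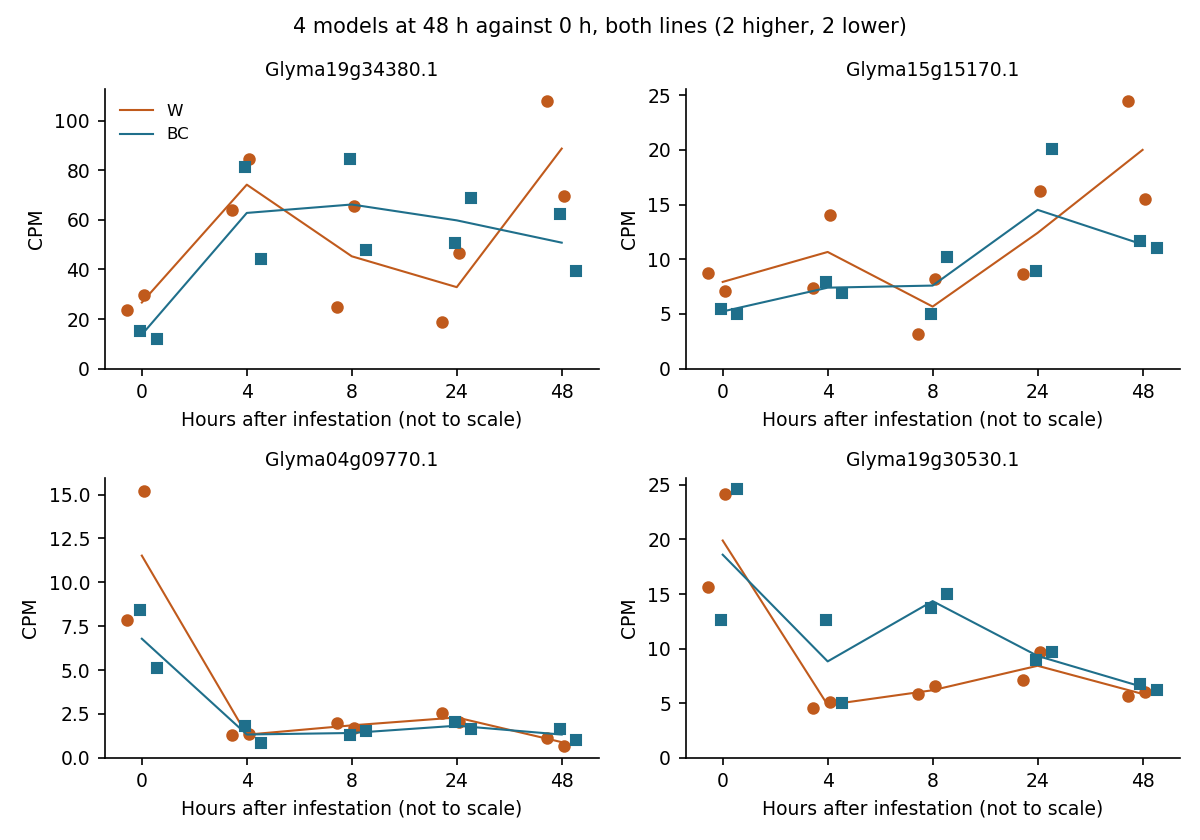
Level (CPM) of the 4 named models in each library by hours after infestation (positions not to scale; circles W, squares BC, lines join the means of the 2 replicates). Each 48 h library lies above each 0 h library in the upper panels and below each in the lower panels, and Glyma04g09770.1 is at 2.55 CPM or less from 4 h on.

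Of the 66210 models, 37945 had a read in each of the 8 libraries. Few were read in all 4 libraries of a time and in none of the other time. In 7 models every 48 h library had a read and no 0 h library did, with at most 14 reads in all. In 65 models every 0 h library had a read and no 48 h library did. The 0 h libraries held 81780265 reads in all and the 48 h libraries 43577032, and the part of this depth gap in the counts was not tested. All but 1 of the 65 had at most 22 reads. That 1 had 497 reads at 0 h, of which 30 were in BC.

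The second question was whether the lines had like changes. The fitted change from 0 h to 48 h had the same sign in W and BC in 46.9% of the 36612 models, and its correlation across models was -0.013 (Pearson) and -0.082 (Spearman). These are descriptions over models, which share libraries and are not replicates, and each line has its own 0 h libraries. Without replicate 2 of BC at 0 h the same sign was found in 44.1%, and the correlations were -0.030 and -0.162. Within a line, where a fold change rests on 4 libraries rather than 8 and is less precise, the median absolute log2 fold change was 0.30 in W and 0.34 in BC, and more than 2-fold fitted changes were found in 3845 models in W and 3762 in BC.

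The same was counted without a model. Both 48 h libraries lay beyond both 0 h libraries in both lines, in the same direction, in 2591 models (7.08%), 1106 of them higher (3.02%) and 1485 lower (4.06%) at 48 h. They did so in opposite directions in 4791 models (13.1%), with 2559 higher in W and lower in BC (6.99%) and 2232 lower in W and higher in BC (6.10%). Without replicate 2 of BC at 0 h these shares were 13.3% for the same and 23.6% for opposite directions. There the 48 h libraries of BC need to lie beyond replicate 1 at 0 h only, which is easier to meet. Of the 902 models with more than 2-fold change in both lines, 188 were higher in both, 279 lower in both, 224 higher in W and lower in BC, and 211 the reverse. There were 1027 such models without replicate 2 of BC at 0 h, 320 higher in both, 152 lower in both, 183 higher in W and lower in BC, and 372 the reverse.

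**Figure D4:**
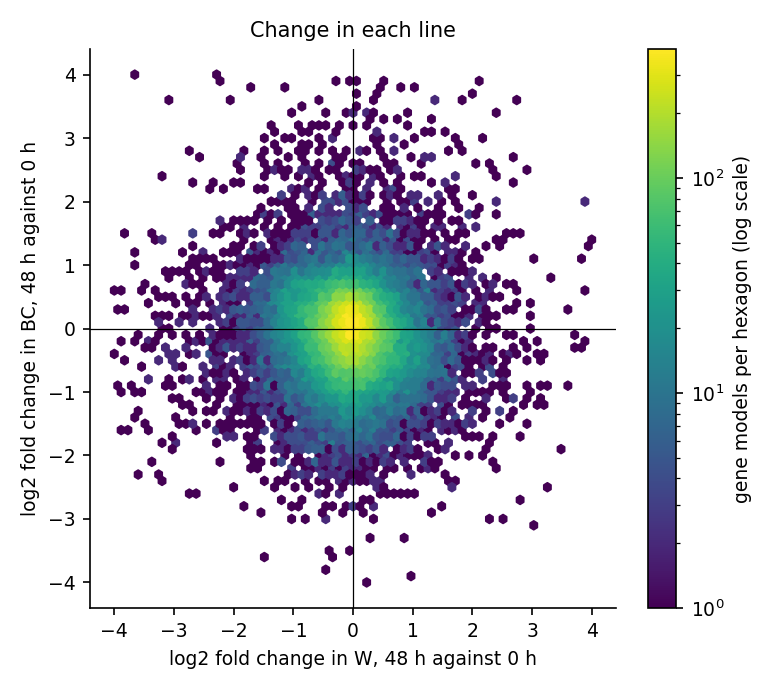
Fitted log2 fold change from 0 h to 48 h in W (horizontal) and BC (vertical), with colour for the number of gene models per hexagon on a log scale. The 36410 models within 4 log2 units on both axes are shown, 202 lie outside, and the cloud has no slope, with a correlation of -0.013 over all 36612.

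Among abundant transcripts the fitted changes of the lines were mostly opposed. The 100 models with the highest mean CPM over the 8 libraries (755 to 11220 CPM) took up 11.9% of the reads in both W libraries at 0 h and 21.4% and 19.2% at 48 h. The BC shares were 17.4% and 13.5% before infestation, then 13.4% and 13.5%. The W libraries at 48 h were therefore the highest of the 8 and those at 0 h the lowest. The mean over both lines was 13.7 ± 2.58% at 0 h and 16.9 ± 4.03% at 48 h (SD, n = 4; exact permutation test, two-sided, p = 0.229, adjusted over 3 library measures p = 0.343). The tests of these 3 measures set 4 against 4 libraries without regard to line, where the smallest possible p is 0.0286. In 84 of the 100 the fitted change had opposite signs in W and BC, with or without replicate 2 of BC at 0 h, where 53.1% of all models tested had opposite signs. Without replicate 1 of BC at 0 h, which leaves the deviating replicate 2 as the only BC baseline, the number was 53. Fitted changes of more than 2-fold were found in 62 of the 100 in W and 16 in BC, where 10.5% and 10.3% of all models had them. In the fit over both lines 2 of the 100 did, both higher at 48 h. In no model of the 100 did the 48 h and 0 h libraries separate fully. The 100 were ranked by their mean over these same libraries, which favours models that are high in some of them. Their shares and counts are therefore a description.

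The other library measures did not pass either. Reads outside gene models made up 4.99 ± 1.67% at 0 h and 3.53 ± 0.728% at 48 h (SD, n = 4; exact permutation test, two-sided, p = 0.143, adjusted p = 0.343), with replicate 2 of BC at 0 h highest at 7.46%. At an equal depth of 7558768 reads, 42410 ± 422 models had a read at 0 h and 42115 ± 921 at 48 h (SD, n = 4; exact permutation test, two-sided, p = 0.571, adjusted p = 0.571). In bulk leaf RNA, fewer cells of a type and less RNA per cell cannot be told apart.

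Within W, with the spread taken from all 8 libraries (4 residual degrees of freedom), edgeR called 6 of 36612 models (0.0164%), 1 of them higher (0.00273%) and 5 lower (0.0137%) at 48 h, with 4246 (11.6%) at an unadjusted p below 0.05. The count was 0 without any 1 of the 4 W libraries or the 2 BC libraries at 48 h, with 1583 to 4223 models at an unadjusted p below 0.05. It was 474 without replicate 1 and 514 (1.36%, with 19.6% at an unadjusted p below 0.05) without replicate 2 of BC at 0 h. Limma voom with library weights called 546 (1.49%) and DESeq2 888 (2.43%). All 6 were among the 514 models. These 514 were chosen for passing in W, and 131 of them (25.5%) had the same sign in BC, against 44.1% of all models in that fit.

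The higher call was Glyma13g11820.1 on chromosome 13. In W it was at 0.307 and 0.893 CPM at 0 h and at 53.2 and 78.2 CPM at 48 h (log2 fold change 6.70 ± 0.58, SE; edgeR adjusted p = 0.0317). The fit to all 20 libraries ended this call (edgeR adjusted p = 0.0955). In BC it was at 1.02 and 0.286 CPM at 0 h and 0.469 and 0.126 CPM at 48 h, so the high level was seen in W libraries. Between these times 1 other library was high, replicate 2 of W at 8 h with 32.2 CPM, where replicate 1 was at 0.768 CPM. The 17 libraries other than this one and the W libraries at 48 h lay at or below 1.4 CPM.

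Glyma08g15980.1 on chromosome 8 had the reverse pattern. It was at 11.6 and 11.8 CPM in W at 0 h, from 726 reads, and had 1 read in W at 48 h, a ratio of 235 with an exact 95% counting interval of 42.0 to 9285 (edgeR adjusted p = 0.0317). This call too was lost in the fit to all 20 libraries (edgeR adjusted p = 0.163). In BC it was at 5.23 and 10.1 CPM at 0 h and 13.7 and 15.2 CPM at 48 h. In W at 8 h replicate 1 was at 15.7 CPM and replicate 2 at 0.123 CPM. The library in which this model was nearly missing at 8 h is the one in which Glyma13g11820.1 was high, and both W libraries at 48 h share that state. These levels were compared after the values had been seen.

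Glyma17g07270.1 on chromosome 17 was at 16.0 and 30.1 CPM in W at 0 h and at 0.571 and 0.129 CPM at 48 h (log2 fold change -5.86 ± 0.56, SE; edgeR adjusted p = 0.0317), and it passed in the fit to all 20 libraries (edgeR adjusted p = 0.0219). In BC it was at 5.38 and 4.71 CPM at 0 h and 1.41 and 1.14 CPM at 48 h, which is a log2 fold change of -1.98 ± 0.48 (SE; edgeR adjusted p = 0.509). The 48 h libraries lay below the 0 h libraries in both lines. Over both lines its log2 fold change was -3.73 ± 0.74 (SE; edgeR adjusted p = 0.794).

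Within BC, edgeR called 0 of 36612 models (0%; lowest adjusted p 0.509), with 3534 (9.65%) at an unadjusted p below 0.05, and 0 again without replicate 2 of the 0 h group, with 2520 (6.66%). Limma voom with library weights called 0 and DESeq2 237 (0.647%). Without replicate 1 of the 0 h group the count was 7256, which compares 48 h with the deviating library alone. The lowest p was that of Glyma20g39150.1 on chromosome 20, with 2 reads in BC at 0 h and 231 at 48 h, a ratio of 116 with an exact 95% counting interval of 31.7 to 961 (edgeR adjusted p = 0.509). In W it was at 2.73 and 3.60 CPM at 0 h and 8.40 and 7.62 CPM at 48 h. Glyma13g04210.1 on chromosome 13 was at 2.47 and 2.43 CPM in BC at 0 h and 7.42 and 11.4 CPM at 48 h, while in W it was at 7.23 and 9.60 CPM at 0 h and 5.63 and 6.20 CPM at 48 h. Its 48 h and 0 h libraries separated in each line, in opposite directions.

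Of the models with lower fitted levels in BC, Glyma02g46970.1 on chromosome 2 was at 36.0 and 37.0 CPM at 0 h and 17.3 and 16.8 CPM at 48 h (log2 fold change -1.11 ± 0.19, SE; edgeR adjusted p = 0.509). In W it stayed between 24.2 and 27.1 CPM in all 4 libraries. Glyma05g36760.1 on chromosome 5 was at 28.5 and 35.6 CPM in BC at 0 h and 14.5 and 12.8 CPM at 48 h. In W it was at 15.3 CPM in both 0 h libraries and at 25.2 and 22.0 CPM at 48 h, the opposite order.

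The difference between the lines' changes was tested itself. EdgeR called 0 of 36612 models (0%; lowest adjusted p 0.147), with 4726, or 12.9%, at an unadjusted p below 0.05. Without replicate 2 of BC at 0 h it called 0, with 5890 (15.6%) at an unadjusted p below 0.05. Limma voom with library weights called 0 and DESeq2 995 (2.72%). Without replicate 1 of BC at 0 h the deviating library is the only BC baseline, so the count there is not read as a result.

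Glyma16g28030.1 on chromosome 16 was the most abundant of the models named for this difference. In W it was at 79.1 and 129 CPM at 0 h and 782 and 732 CPM at 48 h, and in BC at 478 and 454 CPM at 0 h and 171 and 249 CPM at 48 h. The log2 change in BC minus that in W was -4.02 ± 0.48 (SE; edgeR adjusted p = 0.147; 0.0565 without replicate 2 of BC at 0 h). Its replicates were far apart at 4 h, with 518 and 68.0 CPM in W and 29.4 and 351 CPM in BC. Glyma06g00720.1 on chromosome 6 was at 12 and 11.7 CPM in W at 0 h and 37.6 and 34.5 CPM at 48 h, and in BC at 27.3 and 24.9 CPM at 0 h and 18.0 and 18.7 CPM at 48 h. The difference was -2.13 ± 0.27 (SE; edgeR adjusted p = 0.147).

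With the opposite sign, Glyma16g29710.1 on chromosome 16 was at 23.3 and 26.8 CPM in W at 0 h and 2.94 and 3.10 CPM at 48 h, one of the 5 lower calls in W. In BC it was at 9.59 and 7.57 CPM at 0 h and 9.45 and 7.33 CPM at 48 h. The log2 fold change was -3.05 ± 0.27 (SE) in W and -0.05 ± 0.26 (SE) in BC, and the test of their difference gave an edgeR adjusted p = 0.147. For Glyma08g15980.1, described above, the change in BC minus that in W was 8.56 ± 0.84 (SE; edgeR adjusted p = 0.147), where the near absence of reads in W at 48 h makes the size depend on the fit.

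**Figure D5:**
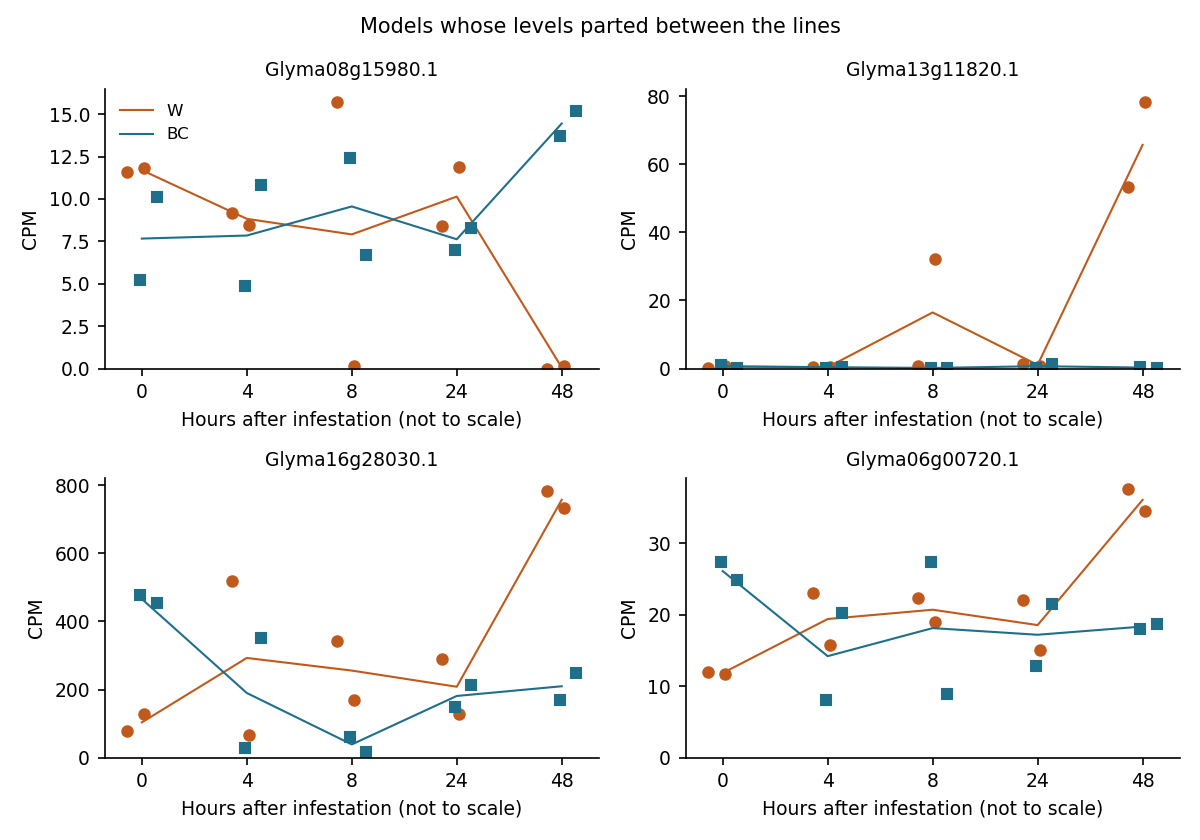
Level (CPM) of 4 models whose W and BC levels parted, in each library by hours after infestation (positions not to scale; circles W, squares BC, lines join the means of the 2 replicates). At 48 h W is at 0.129 CPM or below for Glyma08g15980.1 and at 53.2 and 78.2 CPM for Glyma13g11820.1, and at 8 h a single W replicate has the same state for both.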

How the data were processed

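Leaf mRNA was sequenced on an Illumina HiSeq instrument, per the labels' protocols. The table that the authors deposited holds whole-number read counts for each gene model, unscaled. Tools named in the submitters' processing notes are Cuffdiff 1.3.0, edgeR, HTSeq 0.5.3 and TopHat 1.4.1, with no order given. As no source used here gives the build, annotation release or strand setting, reads of overlapping, antisense or near-identical genes may be misassigned. Rows naming no gene (5) were dropped; they held 4.55% to 9.32% of the reads per library.

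Models were filtered with filterByExpr by line and time, scaled by TMM, and tested in edgeR 4.0.16 (R 4.3.3, robust quasi-likelihood fit) on the 8 libraries with line as covariate (5 residual degrees of freedom, biological coefficient of variation 0.305). Changes within a line and their difference came from a fit of 4 line-by-time groups. DESeq2 1.42.0, limma 3.58.1, other scalings, no filter, all 20 libraries, a replicate block and each library left out were alternatives. The test was also run on simulated counts without line effects or a deviating library, so its outcome there need not hold for these libraries. Printed CPM use TMM library sizes of all 20 libraries, and 95% counting intervals cover counting error only. Labels call the replicates biological. Where these are not separate plants, p-values measure the spread between these samples.

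The comparison, lists and rules were chosen with earlier results of these data known. The 40 gene lists could not be resolved to models, so none was used. Models were named, by rule, as the lowest p among non-overlapping models of at least 1 CPM (both lines), the largest called changes (W), or the lowest p (BC and the difference), at most 2 per direction. The rule asked for 12 per direction, which were summarised, since identifiers have no names here. For W, BC and the difference the rule was set after the data were seen.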

Additional observations from a re-analysis of the deposited data

Results flagged for a closer look

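In 5 of the named models the order of 0 h and 48 h was opposite in W and BC, with both 48 h libraries beyond both 0 h libraries in each line. Among all 36612 models tested, 13.1% had such opposite orders. The fitted log2 change in BC minus that in W was 8.56 for Glyma08g15980.1, 2.42 for Glyma13g04210.1, -1.87 for Glyma05g36760.1, -2.13 for Glyma06g00720.1 and -4.02 for Glyma16g28030.1. The test of this difference did not pass for any of them in edgeR with the low-count filter (adjusted p = 0.147 in each). It passed without that filter for Glyma08g15980.1 (edgeR adjusted p = 4.27e-06), Glyma16g28030.1 (0.00186) and Glyma06g00720.1 (0.00949). The same models passed with DESeq2 (adjusted p = 3.54e-06, 4.92e-14 and 8.52e-06). For Glyma13g04210.1 and Glyma05g36760.1 the values from these alternatives are not given here. Each of the 5 was named for a change within 1 line or for this difference, so the opposite order was in part selected.

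Of 34 sets of values, each from the 4 libraries of a time, 1 had a value far from the others. Reads outside gene models made up 7.46% in replicate 2 of BC at 0 h, with a gap to the next library of 0.857 of the range of the 0 h group, above Dixon's 95% limit for 4 samples. About 1 set in 20 passes that limit by chance. The part of this library's read composition in the results was not tested. Counts of calls by the main edgeR fits and by DESeq2 are given with and without it. Some other counts are given only with it, among them limma voom calls and more than 2-fold changes within each line.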

How the results depend on the processing

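The count of 0 calls over both lines was the same with DESeq2 size factors or upper-quartile scaling in edgeR, limma voom, no line covariate and each library left out (0 to 0 calls, with 1129 to 5298 models at an unadjusted p below 0.05). It was 2 without the low-count filter (1 higher, 1 lower), 72 with DESeq2 (27 higher, 45 lower), 10 with all 20 libraries (all 10 lower), 5 with all 20 but replicate 2 of BC at 0 h (all 5 lower) and 153 with DESeq2 without that library (55 higher, 98 lower). Within W the 6 calls became 388 without the filter, 888 with DESeq2, 546 with limma voom, 30 with all 20 libraries, 38 with all 20 but replicate 2 of BC at 0 h, 1788 with DESeq2 without that library, and 0 to 514 with 1 library left out. Within BC the 0 calls became 1 without the filter, 237 with DESeq2, 83 with DESeq2 without replicate 2 at 0 h, and 0 to 7256 with 1 library left out. For the difference between the lines the 0 calls became 339 without the filter, 995 with DESeq2, 1280 with DESeq2 without replicate 2 of BC at 0 h, and 0 to 5232 with 1 library left out. The upper ends within BC and for the difference are from leaving out replicate 1 of BC at 0 h. That leaves the deviating library as the only BC baseline. The cause of these shifts in counts was not tested.

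With 1 library left out, non-overlapping models numbered 873 to 1767 higher and 1107 to 1986 lower, where fewer libraries need to separate. The share of models with the same sign in W and BC was 44.1% to 49.9% with 1 library left out, 45.9% with upper-quartile scaling, 43.9% without the filter, 47.5% with limma voom, 44.2% with all 20 libraries but replicate 2 of BC at 0 h and 44.0% with DESeq2 without that library. Opposite signs among the 100 most abundant models numbered 53 to 87. Of the models at an unadjusted p below 0.05 over both lines, 64.9% were lower at 48 h, against 59.4% and 61.4% with the other scalings, 69.5% without the filter 71.8% with all 20 libraries and 48.1% with limma voom. Alternatives that leave out replicate 2 of BC at 0 h together with another choice, and those on non-overlap and signs, were chosen after seeing the data.

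No label says that replicate numbers mark a shared source, so they were not taken to pair the libraries. The deviations of same-numbered libraries correlated at 0.489 in W and -0.022 in BC. With the replicate block the counts were 0 over both lines, 8 within W, 0 within BC and 0 for the difference, and Glyma17g07270.1 no longer passed within W (adjusted p = 0.0526). Over the alternatives, the named models gave 0 reversed signs, and 23 of 51 values within W no longer passed. These models were chosen by their separation or p in the same libraries, so the kept signs are no separate support. The median standard error was largest under 1 CPM, at 0.54, and the part of depth in it was not tested.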
